A study of Mus musculus with 4 samples.

Results

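The lineage transcription factors of invariant natural killer T (iNKT) cells were followed in single cells of the thymus through the 7 genes Zbtb16, Gata3, Tbx21, Eomes, Bhlhe40, Rora and Maf. They were taken by symbol, and each of the 7 was found once among the 31053 genes of the count matrices.

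iNKT cells are T cells with a nearly fixed T cell receptor that reads lipids on CD1d. They arise from double positive thymocytes, pass through a CD24-bearing stage 0 and a phase of division, and settle as iNKT1, iNKT2 or iNKT17 cells, which resemble the helper T cell types that make interferon gamma, interleukin 4 and interleukin 17. The zinc finger protein PLZF, encoded by Zbtb16, is switched on early and gives these cells their innate character. T-bet (Tbx21) drives iNKT1 cells, GATA3 is needed for T cell development and for the iNKT2 fate, RORα (Rora) and c-MAF (Maf) act in type 17 programmes, Eomesodermin (Eomes) is the T-box relative of T-bet, and BHLHE40 is a basic helix-loop-helix repressor that works beside T-bet.

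Thymic cells were sorted by PBS57-CD1d tetramer, which marks iNKT cells by their receptor, from untreated mice aged 8 to 9 weeks, 2 C57BL/6 mice and 2 Hivep3-/- mice crossed onto that background, with 1 library per mouse, so that the replicates are mice. CD44low and CD44high cells were pooled in equal numbers at the sort, so the share of each stage was partly set by the gate. Transcripts were counted by unique molecular identifiers (UMIs) with droplet 5' chemistry. The comparison asks how the programme of iNKT cells differs where the zinc finger protein HIVEP3 is missing.

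After filtering, 19647 cells remained, 3651 to 7231 per library, from totals of 31381738 to 48291764 UMIs. Kept cells were shallower in C57BL/6, with medians of 4596 and 5268 UMIs against 6833 and 6491 in Hivep3-/-, so shares of cells with a UMI are given after thinning every cell to 2000 UMIs. C57BL/6 replicate 1 held 14609 UMIs of Xist and none of the 4 Y-linked genes checked, whereas the other 3 libraries held 3 to 25 UMIs of Xist and all 4 Y-linked genes, so sex was not balanced between the genotypes. Hivep3 itself was at 38.5 and 36.4 CPM (UMIs of the gene scaled to 1 common total of UMIs in every group of cells) in C57BL/6 and at 101 and 68.0 in Hivep3-/-. Tags from the 5' end check a deletion only where they lie in the deleted part, whose position was not analysed here, so the genotype labels were not checked by this gene. Pairs of libraries shared 18 to 43 cell barcodes.

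Promoters of 4 of the 7 genes were in the RefSeq promoter table, and 3 are shown because their genes carry the results below: the T-box pair Tbx21 and Eomes, of which Tbx21 marked the iNKT1-like cells of both genotypes and Eomes was found mainly in those of Hivep3-/- mice, and Rora, which fell in 2 classes. Each line holds the 250 bases before the transcription start in GRCm38.p6, 5′ to 3′ on the gene's strand, with matches to 3 core promoter words in capitals: the TATA box (letters TATAA), the CCAAT box (named by its letters) and the GC box (letters GGGCGG), each searched on both strands.
Eomes promoter (chr9:118477939-118478188, + strand): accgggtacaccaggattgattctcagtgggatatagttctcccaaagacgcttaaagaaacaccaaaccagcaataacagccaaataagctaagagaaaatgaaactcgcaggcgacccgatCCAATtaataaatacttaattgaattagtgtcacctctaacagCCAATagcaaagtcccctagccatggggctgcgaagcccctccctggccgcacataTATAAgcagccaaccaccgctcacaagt
Tbx21 promoter (chr11:97115332-97115581, - strand): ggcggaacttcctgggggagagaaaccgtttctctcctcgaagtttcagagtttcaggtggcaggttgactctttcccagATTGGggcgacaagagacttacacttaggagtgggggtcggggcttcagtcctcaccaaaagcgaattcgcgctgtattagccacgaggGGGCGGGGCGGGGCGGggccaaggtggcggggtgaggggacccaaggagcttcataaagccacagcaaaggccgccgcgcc
Rora promoter (chr9:68653536-68653785, + strand): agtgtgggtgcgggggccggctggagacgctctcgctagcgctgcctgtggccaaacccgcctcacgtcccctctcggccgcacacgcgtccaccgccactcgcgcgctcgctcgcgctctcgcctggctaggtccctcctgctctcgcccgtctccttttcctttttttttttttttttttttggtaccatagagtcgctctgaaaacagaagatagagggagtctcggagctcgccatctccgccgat
The Eomes window held a TATA box that begins 28 bases before the RefSeq start, which lies upstream of the gene start of the other annotation given below, and 2 CCAAT boxes, and 46.4% of its bases were G or C. The Tbx21 window had no TATA box, but 3 overlapping GC boxes and 1 CCAAT box in reverse, with 60.8% G or C, and the Rora window held none of the 3 words, with 61.2% G or C. Of the 32851 promoters in the table, 22.8% held the TATA word, 33.8% the CCAAT word and 32.7% the GC word. None of the 3 windows held the T-box word TCACACCT (1.12% of all promoters), the E-box CACGTG (6.02%) or the GATA word AGATAA (9.99%). These matches describe letters in a window and not binding.

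In mm10, Zbtb16 lay at chr9:48654297-48836222 on the minus strand, Tbx21 at chr11:97098071-97115331 (minus), Gata3 at chr2:9857078-9890034 (minus), Rora at chr9:68653786-69388246 (plus), Eomes at chr9:118478212-118486132 (plus), Maf at chr8:115682942-115707794 (minus) and Bhlhe40 at chr6:108660629-108666925 (plus). Of these, Gata3, Rora, Eomes, Maf and Bhlhe40 overlapped annotated antisense or neighbouring genes that were also counted, and Gata3 alone overlapped 1 of them on its own strand.

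Cells were grouped into 15 clusters and named from marker genes, with the 7 factors left out of both steps, so that their own levels did not enter the names. Genes of the same programmes did serve as markers. They were 7 of 12 genes listed as linked to T-bet, 5 of 8 linked to GATA3 and 11 of 12 iNKT17 genes. Of 14 genes listed as acting upstream of or together with PLZF, 4 were markers too. Because the classes came from the same cells, levels across classes are descriptions. The 5 classes of the iNKT path held 1210 stage 0-like cells (Itm2a, Cldn10 and Cd24a led the cluster), 2171 cycling-like cells, 2793 iNKT2-like cells (Il6ra and Il17rb), 612 iNKT17-like cells (Serpinb1a and Pxdc1) and 9529 iNKT1-like cells. Another 18 cells were B cell-like and 137 double positive thymocyte-like, and clusters 2 and 8, with 2301 and 876 cells, stayed unnamed. The plot of levels by class shows all 7 genes in the 4 libraries.

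**Figure D1:**
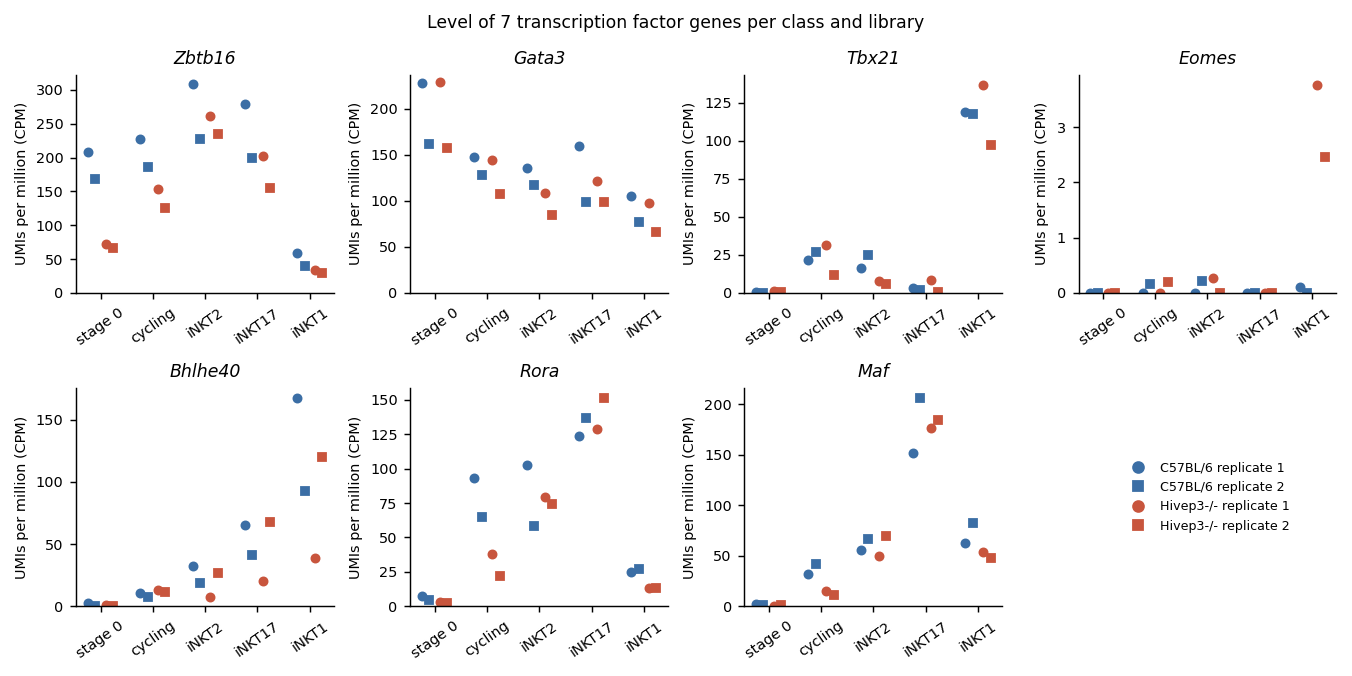
Level of each gene (y axis, CPM, relative to all UMIs of the class) in 5 classes (x axis, names without "-like"), with 1 point per library, circles for replicate 1 and squares for replicate 2. Tbx21 and Bhlhe40 stood highest in iNKT1-like cells, Rora and Maf in iNKT17-like cells and Gata3 in stage 0-like cells. Eomes passed 1 CPM only in the iNKT1-like cells of the 2 Hivep3-/- libraries.

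In C57BL/6, Zbtb16 was lowest in iNKT1-like cells. In stage 0-like cells it was at 208 and 169 CPM in C57BL/6 replicates 1 and 2, in cycling-like cells at 228 and 186, in iNKT2-like cells at 309 and 227, in iNKT17-like cells at 279 and 200, and last in iNKT1-like cells at 58.3 and 39.9. The first 4 classes overlapped with their neighbours in that order, and only iNKT1-like cells lay apart, with 5.29 and 5.70 times less than iNKT2-like cells. In Hivep3-/- the same order was spread out: 262 and 235 CPM in iNKT2-like, 203 and 155 in iNKT17-like, 154 and 125 in cycling-like, 71.9 and 66.6 in stage 0-like and 34.5 and 29.97 in iNKT1-like cells, with no overlap between neighbours. The ratio of iNKT2-like to stage 0-like cells was 1.49 and 1.35 in C57BL/6 and 3.64 and 3.52 in Hivep3-/-. No UMI of Zbtb16 was found in the 18 B cell-like cells, which allows a share of cells of up to 16.7% (median 3935 UMIs per cell, against 4659.5 in stage 0-like cells). The double positive thymocyte-like cells, of which 96 and 8 were from C57BL/6 and 18 and 15 from Hivep3-/- and whose median depth was only 1330 UMIs, held 58, 6, 13 and 0 UMIs of Zbtb16, or 436, 435, 385 and 0 CPM. Zbtb16 was thus counted in this group too, at C57BL/6 levels above those of every iNKT class. The source of the UMIs in such shallow cells was not tested.

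Gata3 was highest in stage 0-like cells, at 228 and 162 CPM in C57BL/6 and 229 and 158 in Hivep3-/-, and lowest in iNKT1-like cells, at 105 and 76.7 and at 97.8 and 66.3. The ratio between these classes was 2.11 to 2.38 in all 4 libraries. Cycling-like, iNKT2-like and iNKT17-like cells lay between them, from 84.7 to 159 CPM, and overlapped with each other in both genotypes. In Hivep3-/- the iNKT2-like cells also overlapped with the iNKT1-like cells.

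Tbx21, which drives the iNKT1 fate, was highest in iNKT1-like cells and nearly missing from stage 0-like cells. It reached 119 and 117 CPM in C57BL/6 and 137 and 97.2 in Hivep3-/- iNKT1-like cells, and the stage 0-like cells of the 4 libraries held 1, 0, 3 and 1 UMIs of it. Cycling-like cells held 21.8 and 26.9 CPM in C57BL/6, overlapping with iNKT2-like cells at 16.4 and 25.2, and iNKT17-like cells only 3.07 and 1.82. The stage 0-like and iNKT1-like classes had like depths, with medians of 4659.5 and 4969 UMIs per cell, so the share of stage 0-like cells with Tbx21, 0% to 0.285% after thinning, is a measure of background for the 17.7% to 23.2% of iNKT1-like cells. The few double positive thymocyte-like cells held 15, 2, 3 and 0 UMIs of Tbx21, or 113, 145, 88.8 and 0 CPM. After thinning, Tbx21 was in 0% of those that remained in both genotypes. The source of these UMIs was not tested.

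Bhlhe40 stood highest in iNKT1-like cells too, at 167 and 92.6 CPM in C57BL/6. It was at 65.3 and 41.1 in iNKT17-like, 32.1 and 18.7 in iNKT2-like, 10.5 and 7.47 in cycling-like and 2.69 and 0 in stage 0-like cells, and no neighbours in this order overlapped in C57BL/6. The Hivep3-/- libraries differed widely from each other, with 38.5 and 120 CPM in iNKT1-like and 20.4 and 68.1 in iNKT17-like cells, so that there each of the first 3 classes overlapped with the next. The B cell-like cells held 10 UMIs of Bhlhe40, in 4 of 18 cells. The ratio of iNKT1-like to iNKT2-like cells was nevertheless 4.55 to 5.22 in all 4 libraries.

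Rora and Maf, the pair linked to type 17 programmes, both peaked in iNKT17-like cells. Rora was at 124 and 137 CPM there in C57BL/6 and at 129 and 151 in Hivep3-/-, and Maf at 152 and 206 and at 177 and 184. They parted in the other classes: Rora came next in iNKT2-like cells (102 and 58.6 in C57BL/6) and cycling-like cells (92.9 and 65.0), with 25.1 and 27.1 in iNKT1-like cells, whereas Maf came next in iNKT1-like cells (62.6 and 82.6) and iNKT2-like cells (55.6 and 66.4), with 31.9 and 42.3 in cycling-like cells. Stage 0-like cells held 4.37 to 7.40 CPM of Rora and 1.46 to 2.02 of Maf in C57BL/6. Eomes was near 0 in C57BL/6, with 12 UMIs in all kept cells of the 2 libraries.

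The genes whose levels were most like each factor over the 20 values of 5 classes in 4 libraries, by Pearson's r of log2(CPM + 1) among 5319 genes (5320 for Eomes) with a mean of at least 20 CPM, are given as a description, since the values share libraries and classes. For Zbtb16 they were Tnfsf11 (r = 0.913), Il17rb (0.890) and Fam3c (0.857), and for Gata3 Sfpq (0.914), Top1 (0.906) and Abhd8 (0.903). For Tbx21 they were Adgre5 (0.950), Cxcr3 (0.940) and Arsb (0.939), and for Bhlhe40 Rgs1 (0.948), Atp8b4 (0.928) and Runx3 (0.923). For Rora they were Tnfrsf25 (0.951), Crmp1 (0.951) and Icos (0.947), and for Maf Il18r1 (0.983), Capg (0.982) and Bcl2a1b (0.978). For Eomes the highest were Cd48 (0.674), Epsti1 (0.658) and Sidt1 (0.656). Eomes was at 2.47 and 3.77 CPM in Hivep3-/- iNKT1-like cells and at most at 0.264 elsewhere, so its r values are set by few points.

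The genotypes were then compared class by class with edgeR's quasi-likelihood test on UMIs summed per library, and genes with a Benjamini-Hochberg adjusted p under 0.05 over all genes of the class were called. Differences are given on the log2 scale as Hivep3-/- over C57BL/6. The number of the 7 factors called was 1 of 2 tested in stage 0-like cells, 3 of 6 in cycling-like, 0 of 6 in iNKT2-like cells, 0 of 5 in the iNKT17-like class, 2 of 7 in the iNKT1-like class and 0 of 7 over all kept cells. One of the 2 in the iNKT1-like class was Eomes, which passed the low-count filter only through the Hivep3-/- libraries, so that its call is no support and the count without it is 1 of 6. Over all genes, 0.320% were called in stage 0-like (0.240% lower in Hivep3-/-), 4.48% in cycling-like (2.19% lower and 2.29% higher), 0.374% in iNKT2-like and 0.0659% in iNKT17-like cells. The share was 0.706% in iNKT1-like cells and 0.765% over all kept cells. The median log2 difference of the tested factors was -0.88, -0.58, -0.34, -0.31 and -0.59 in the 5 classes, against 0.02, 0.03, 0.03, 0.00 and 0.00 over all genes tested. The iNKT1-like median of -0.59 includes Eomes, although its call is no support. The factors not tested had too few UMIs in the class.

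**Figure D2:**
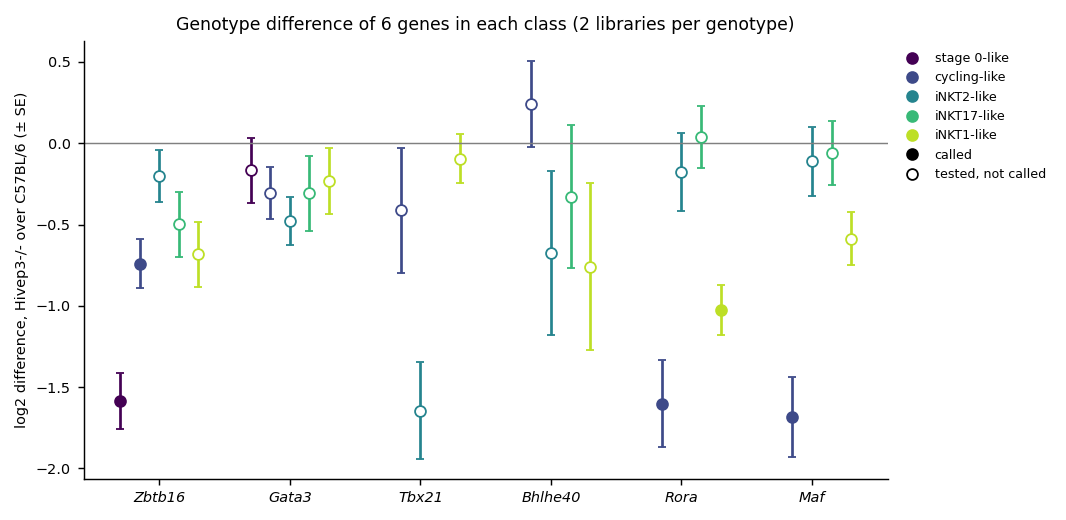
Log2 difference of 6 genes between Hivep3-/- and C57BL/6 (y axis, ± SE of the edgeR fit, 2 libraries per genotype) for each gene (x axis) and class (color), with filled points for called genes; Eomes is left out because its fitted difference depends on the prior count. Zbtb16 in stage 0-like cells (-1.58), Zbtb16, Rora and Maf in cycling-like cells (-0.74, -1.60 and -1.68) and Rora in iNKT1-like cells (-1.03) were called, and all 5 lay below 0.

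Zbtb16 fell in stage 0-like cells. The 4 libraries held 309 and 116 UMIs of it in C57BL/6 and 170 and 158 in Hivep3-/-, in 339 and 112 cells against 365 and 394, which gives the 208 and 169 CPM against 71.9 and 66.6 above. The genotypes did not overlap, and the log2 difference was -1.58 (SE 0.17, adjusted p = 0.00142). The call held under all 13 alternatives (adjusted p = 4.92e-12 to 0.00187).

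The Zbtb16 UMIs of stage 0-like cells were held by few cells. Before thinning, 31.0% and 30.4% of these cells had at least 1 UMI in C57BL/6 and 13.7% and 14.5% in Hivep3-/-, whereas cells with a UMI carried a mean of 2.94 and 3.41 UMIs in C57BL/6 and 3.40 and 2.77 in Hivep3-/-. The genotypes did not overlap in the share of cells that carried Zbtb16, while the number per carrying cell overlapped. Cells with 3 or more UMIs made up 13.3% and 17.9% of the class in C57BL/6 and 7.12% and 5.84% in Hivep3-/-, and held 69.6% to 85.3% of its Zbtb16 UMIs.

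The carrying cells also differed from the rest of the class in its own markers, a split made after the values were seen. Cd24a, the marker that is lost as cells leave stage 0, was at 131 to 168 CPM in cells without Zbtb16 and at 0 to 13.6 in cells with 3 or more UMIs, in all 4 libraries. Itm2a, another stage 0 marker, was at 2350 to 2850 against 448 to 1240 CPM. The deepest cells were among the carriers, with medians of 8037 to 12337 UMIs against 2527 to 4891 in cells without Zbtb16, and the summed iNKT2 markers of the whole class were at 946 and 1010 CPM in C57BL/6 and 700 and 617 in Hivep3-/-. The part of this makeup in the genotype difference was not tested.

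All 14 genes listed as acting upstream of or together with PLZF were tested in stage 0-like cells, of which 1 rose and 1 fell. Id2, an inhibitor of E proteins, fell (log2 difference -2.45, SE 0.21, edgeR adjusted p = 0.000541), from means of 140 to 25.1 scaled CPM, and Hdac7, a histone deacetylase, rose from 59.6 to 176 scaled CPM (log2 difference 1.5, SE 0.27, adjusted p = 0.0435). The median of the 14 genes was 0.56, against 0.02 over all genes tested. Gata3, the other factor tested in this class, was at -0.17 (SE 0.20) and not called.

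**Figure D3:**
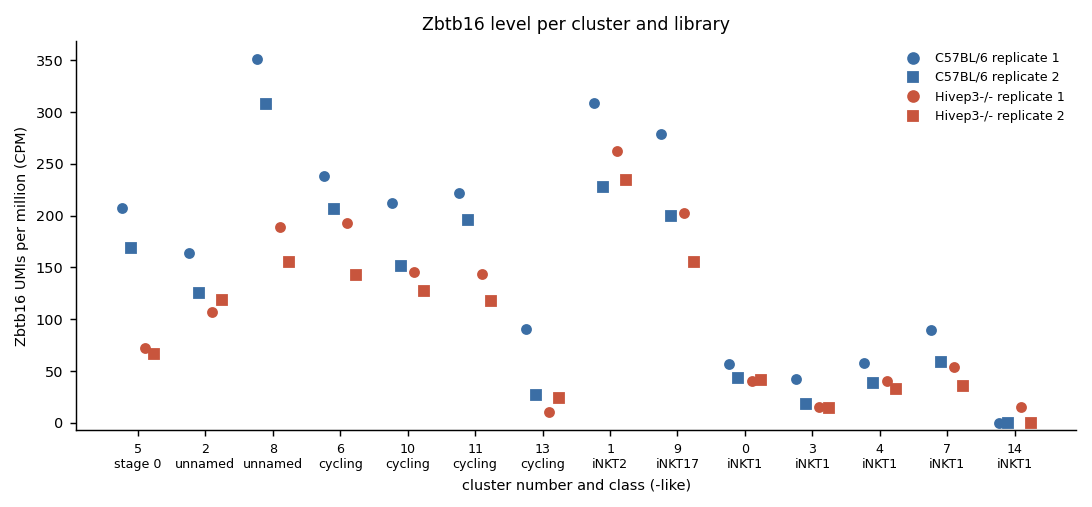
Zbtb16 level (y axis, CPM, relative to all UMIs of the cluster) in 14 clusters (x axis, cluster number and class), with 1 point per library. The Hivep3-/- libraries lay below both C57BL/6 libraries in stage 0-like cluster 5 (71.9 and 66.6 against 208 and 169) and in the unnamed cluster 8 (189 and 155 against 351 and 308), and between them in iNKT2-like cluster 1.

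Zbtb16 also fell in cycling-like cells, from 228 and 186 CPM to 154 and 125, by a log2 difference of -0.74 (SE 0.15, edgeR adjusted p = 0.0359). That call was lost without C57BL/6 replicate 1 (adjusted p = 0.220) and without Hivep3-/- replicate 2 (adjusted p = 0.0695), at a coarser clustering (adjusted p = 0.0861), without the 5% of cells with the highest doublet scores (adjusted p = 0.0519) and in cluster 6 alone (-0.56, adjusted p = 0.111). It held in the other 9 of 14 alternatives, with 0.000183 the lowest adjusted p. In iNKT2-like cells the libraries overlapped, at -0.20 (SE 0.16). The differences of -0.50 (SE 0.20) in the iNKT17-like class and of -0.68 (SE 0.20) in the iNKT1-like class were not called. In the unnamed cluster 8, which Tnni1 and Htra3 led, Zbtb16 was at 351 and 308 CPM in C57BL/6 and 189 and 155 in Hivep3-/-.

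Rora and Maf fell in cycling-like cells. Rora was at 92.9 and 65.0 CPM in C57BL/6 and 38.2 and 22.0 in Hivep3-/-, a log2 difference of -1.60 (SE 0.27, edgeR adjusted p = 0.0145), and Maf at 31.9 and 42.3 against 15.4 and 10.9, a difference of -1.68 (SE 0.25, adjusted p = 0.00926). Neither gene overlapped between genotypes, and both calls held without each library in turn. In cluster 6 alone, the largest cycling-like cluster, Maf was at -1.91 (adjusted p = 0.0170) but Rora was no longer called, at -0.82 (adjusted p = 0.122). Without the correction between libraries, Maf was at -1.13 and no longer called (adjusted p = 0.0679). Over 14 alternatives the adjusted p ran from 1.4e-13 to 0.122 for Rora and from 2.16e-10 to 0.0679 for Maf.

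The makeup of the cycling-like class moved with genotype. The summed iNKT2 markers, all 11 of them detected, were at 1875 and 1784 CPM in C57BL/6 and 825 and 768 in Hivep3-/-, and the 27 iNKT1 markers, also all detected, at 1746 and 1655 against 4946 and 2974. The 18 stage 0 markers summed to 2121 and 1773 CPM in C57BL/6 and 3750 and 3386 in Hivep3-/-, and the 3 thymic epithelial markers, of which 2 were at 0, to 3.48 and 3.98 against 22.8 and 27.3. Cluster 13, which had 56 cells in all, made up 0.841% and 2.005% of the class in C57BL/6 and 11.2% and 3.98% in Hivep3-/-. The part of this makeup in the falls of Zbtb16, Rora and Maf was not tested. Of the 12 genes linked to T-bet, 11 were tested in it and 6 rose, led by Il2rb (the interleukin 2 receptor beta chain, 1.56, SE 0.15, edgeR adjusted p = 0.00154), Ccl5 (a chemokine, 4.10, SE 0.59, adjusted p = 0.00904) and Nkg7 (a cytotoxic granule gene, 1.81, SE 0.28, adjusted p = 0.0116). Of the 8 type 2 genes linked to GATA3, 6 were tested and 5 fell: Icos (a costimulatory receptor, -2.36, adjusted p = 0.00016), Il13 (-3.82, adjusted p = 0.000953), Il4 (-2.20, adjusted p = 0.00324), Il17rb (-2.23, adjusted p = 0.00525) and the chemokine receptor gene Ccr4 (-0.84, adjusted p = 0.0313). Of 12 iNKT17 genes, 6 were tested and 3 fell, Il17re, Blk and Aqp3. The medians of these lists were 1.76, -2.22 and -1.01. Tbx21 and Gata3 themselves were not called there, at -0.41 (SE 0.39) and -0.31 (SE 0.16), and Tbx21 changed sign without Hivep3-/- replicate 2 (0.175) and with 2 other clusterings. Under 2 of 14 alternatives Tbx21 was instead called lower in Hivep3-/-, and its log2 difference ran from -1.77 to 0.23 over all 14. Of these lists 7, 5 and 11 genes had also served as class markers, so the counts in classes named from them are not independent of the naming.

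Rora also fell in iNKT1-like cells, from 25.1 and 27.1 CPM to 13.6 and 13.3, a log2 difference of -1.03 (SE 0.16, edgeR adjusted p = 0.0341), with no overlap between genotypes. The call needed all 4 libraries: leaving out any one gave -0.97 to -1.08 with adjusted p = 0.0762 to 0.226, the latter the highest over 14 alternatives, whose lowest was 1.14e-05. In cluster 0 alone, the largest iNKT1-like cluster, which held 54.3% to 59.5% of the class in C57BL/6 and 39.4% to 40.4% in Hivep3-/-, the difference was -0.82 (adjusted p = 0.190). In iNKT17-like cells, where Rora was highest, it was at 0.04 (SE 0.19), and in iNKT2-like cells at -0.17 (SE 0.24). Maf in iNKT1-like cells was at 62.6 and 82.6 CPM against 53.8 and 47.9, which did not overlap, but was not called (-0.59, SE 0.16).

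Tbx21 was called in no class where it was tested, and it had too few UMIs for a test in stage 0-like and iNKT17-like cells. In iNKT2-like cells it was at 16.4 and 25.2 CPM in C57BL/6 and 7.91 and 6.00 in Hivep3-/-, without overlap, and the log2 difference of -1.64 (SE 0.30, edgeR adjusted p = 0.0870) missed the threshold. It passed under 6 of 13 alternatives, among them without C57BL/6 replicate 1 (adjusted p = 0.00270), without C57BL/6 replicate 2 (adjusted p = 0.0450) and with DESeq2 (adjusted p = 0.0110), within a range of 2.57e-07 to 0.136. In iNKT1-like cells the difference was -0.10 (SE 0.15) and turned to 0.07 without Hivep3-/- replicate 2. Of its 12 linked genes, all were tested in iNKT1-like cells and 1 rose, Ccl5, with a log2 difference of 1.69 (SE 0.16, adjusted p = 0.00414). Ccl5 led cluster 3, which made up 15.5% to 16.4% of the iNKT1-like class in C57BL/6 and 28.8% to 34.6% in Hivep3-/-, and the part of that shift in the Ccl5 difference was not tested.

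Gata3 was at -0.17 to -0.48 in the 5 classes and was called in none of them, and it changed sign in stage 0-like (0.10), iNKT17-like (0.06) and iNKT1-like cells (0.03) without C57BL/6 replicate 1, and in stage 0-like cells also without Hivep3-/- replicate 2 (0.02). Some of its linked type 2 genes fell: in iNKT2-like cells 2 of 6 tested fell, Il13 (-3.51, SE 0.31, edgeR adjusted p = 0.00909) and Il4 (-1.38, SE 0.12, adjusted p = 0.00909), and in iNKT1-like cells 1 of 5, Il4 (-1.48, SE 0.17, adjusted p = 0.0104). Bhlhe40 was called in none of the 4 classes where it was tested, at -0.76 (SE 0.51) in iNKT1-like cells, since Hivep3-/- replicate 1 lay below both C57BL/6 libraries and replicate 2 between them. Of 14 relatives of the 7 factors, 6 to 8 were tested per class and edgeR called 0.

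Eomes, the T-box relative of T-bet, was found mainly in Hivep3-/- iNKT1-like cells. These cells held 1 and 0 UMIs of it in C57BL/6 and 71 and 32 in Hivep3-/-, among 19268105 and 31830180 UMIs in all. The ratio per UMI was 62.4, with 10.9 to 2490 as its 95% interval for counting error alone. Because the gene passed the low-count filter only through the Hivep3-/- libraries, these values are a description and the edgeR call is not used. Stage 0-like and iNKT17-like cells held no UMI in any library, and cycling-like and iNKT2-like cells 1 UMI per genotype.

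**Figure D4:**
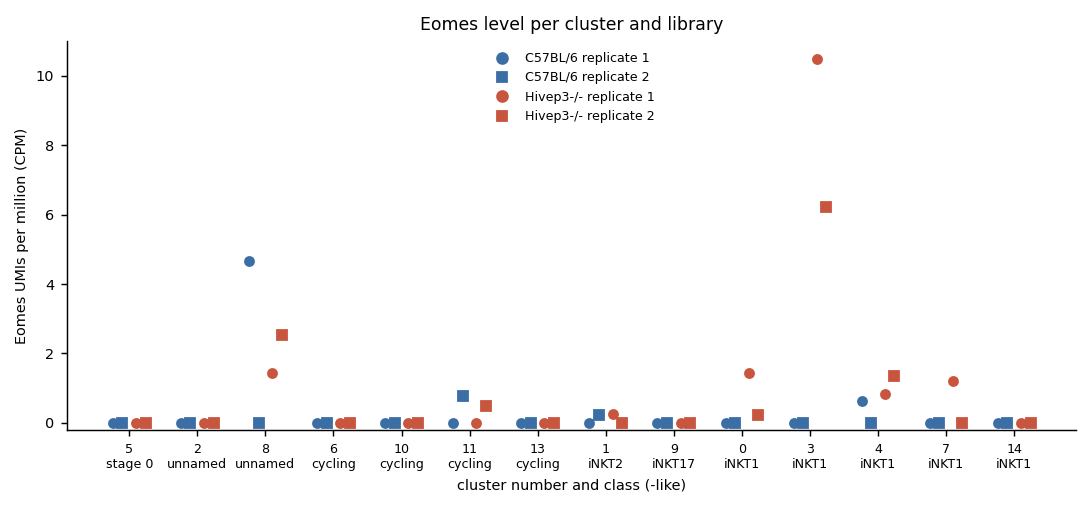
Eomes level (y axis, CPM, relative to all UMIs of the cluster) in 14 clusters (x axis, cluster number and class), with 1 point per library. In cluster 3 the Hivep3-/- libraries reached 10.5 and 6.21 CPM and both C57BL/6 libraries were at 0. In cluster 8 the value of 4.66 for C57BL/6 replicate 1 came from 2 cells.

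Within the iNKT1-like class, 79.6% of the Hivep3-/- Eomes UMIs lay in cluster 3, which Ccl5 and Gzma led. There 39 of 804 and 19 of 738 Hivep3-/- cells had a UMI, with at most 4 UMIs in 1 cell, with 55 and 27 UMIs in all. None of the 449 and 290 C57BL/6 cells of that cluster did. The unnamed cluster 8 held 4 and 9 further UMIs in Hivep3-/-, and 9 UMIs in 2 cells of C57BL/6 replicate 1.

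Eomes is also a gene of conventional natural killer cells, so markers of natural killer or innate lymphoid cells and of T cells are given beside it, chosen after the values were seen. In cluster 3, the natural killer receptor gene Ncr1 was at 1.91 and 6.05 CPM in C57BL/6 and 32.6 and 37.3 in Hivep3-/-, and 15 of the 39 and 7 of the 19 Eomes cells had a UMI of it. Klrb1c was at 395 and 426 against 321 and 324 CPM, Klrb1b at 7.64 and 10.6 against 6.87 and 11.3, and Il22 at 0 in all 4 libraries. Klrb1c had also served as an iNKT1 marker in the naming of clusters. Over the whole iNKT1-like class the 3 markers of natural killer or innate lymphoid cells, of which 1 was at 0 in each library, summed to 6.02 and 8.16 CPM against 17.0 and 21.5. Of the same cluster 3 Eomes cells, 38 of 39 and 19 of 19 held Cd3e and all held Cd3d, genes of the T cell receptor complex. All held Ccl5 too, the gene that led the cluster. These shares were not set against the other cells of cluster 3. Trac, the constant part of the receptor's alpha chain, was seen in 22 of 39 and 11 of 19. Tbx21 was found in 28 of the 52 and 12 of the 24 Eomes cells of the whole Hivep3-/- iNKT1-like class, and in 53.8% and 40.5% of all its cells. The part of other cell types in the Eomes values was not tested.

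The interaction of genotype with class was tested across the 5 classes with library as a block. Of 6 factors tested, 4 were called, against 11.0% of all genes: Zbtb16 (edgeR adjusted p = 4.55e-06), Maf (7.45e-05), Rora (0.000471) and Tbx21 (0.0100). Gata3 (0.437) and Bhlhe40 (0.356) were not called, and Eomes was filtered out. Bhlhe40 was called without Hivep3-/- replicate 2 (0.000383) and without the low-count filter (0.0169), with 0.869 the highest over its alternatives. The Tbx21 call was lost without C57BL/6 replicate 2 (0.147) and without the correction between libraries (0.116), with 1.06e-08 the lowest over its alternatives. Over the same alternatives the adjusted p was at most 0.000941 for Zbtb16, 0.00505 for Maf and 0.0164 for Rora.

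Shares of cells with at least 1 UMI were compared after thinning to 2000 UMIs, which left out 75 to 502 cells per library. With 2 libraries against 2, the two-sided exact permutation test cannot give a p below 0.33, so these values are descriptions. The detected share did not overlap between genotypes for 14 of the 35 pairs of a factor and a class, and for 12 of the 26 pairs in which the factor was tested, against 38.4% of all pairs of a tested gene and a class. Eomes in iNKT1-like cells is in both counts but passed the low-count filter only through the Hivep3-/- libraries, so it is no support. Zbtb16 in stage 0-like cells was detected in 23.0% of cells (95% exact binomial interval 18.0 to 28.6) and 11.7% (6.17 to 19.5) in C57BL/6 and in 5.98% (3.74 to 9.00) and 7.71% (5.19 to 11.0) in Hivep3-/-. The intervals cover counting error only, and the C57BL/6 replicates differed more from each other in this share than in CPM. Thinning kept 257 of 339 and 103 of 112 stage 0-like cells in C57BL/6, and 351 of 365 and 363 of 394 in Hivep3-/-. Cells without Zbtb16 were shallower, as given above, so this loss weighs most on the share of C57BL/6 replicate 1. Thinned to 1000 UMIs, which left out no cell, the genotypes differed by -6.92 percentage points (pooled SD 0.743), against -10.5 (5.72) at 2000 UMIs.

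In cycling-like cells the shares were 37.1% and 30.1% against 24.4% and 21.8% for Zbtb16, 15.6% and 12.3% against 6.97% and 5.59% for Rora, and 6.01% and 9.52% against 2.49% and 1.86% for Maf. All 3 genes were seen in fewer Hivep3-/- cells in every comparison of libraries. Before thinning, Rora was in 50.5% and 45.4% against 18.0% and 17.0% of cycling-like cells. In iNKT2-like cells, Tbx21 was detected in 3.78% and 5.37% against 0.781% and 1.14%, while Zbtb16 was in 41.8% and 35.3% against 34.9% and 34.0%. Eomes was in 0.616% and 0.236% of Hivep3-/- iNKT1-like cells and in none of the 2513 and 1820 thinned C57BL/6 cells, which allows shares of up to 0.119% and 0.165%.

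Of thinned iNKT17-like cells, 19.8% to 34.4% held none of the 7 factors, and of stage 0-like cells 50.6% to 70.0%. The mean number of factors seen per cell was 1.30 and 1.21 in C57BL/6 iNKT17-like cells and 1.11 and 1.04 in Hivep3-/-, and 0.932 and 0.790 against 0.690 and 0.705 in iNKT1-like cells. In each of the 5 classes both Hivep3-/- libraries lay below both C57BL/6 libraries in this mean. The classes share the same libraries, and the mean was not computed for other sets of genes, so this is a description.

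Co-detection was set against the product of the single shares in each library. Of the 21 pairs of factors, 14 had at least 5 expected cells in every library among iNKT1-like cells, 5 among iNKT2-like, 4 among iNKT17-like and 1 among cycling-like cells. In iNKT1-like cells Zbtb16 and Tbx21 were seen together in 170 cells where 146 were expected, with ratios of 1.01 to 1.38 over the libraries, and Gata3 and Maf in 185 where 169 were expected (1.01 to 1.42). Gata3 and Rora met in 48 cells where 54.2 were expected (0.731 to 0.999). The other 11 pairs had ratios on both sides of 1.

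**Figure D5:**
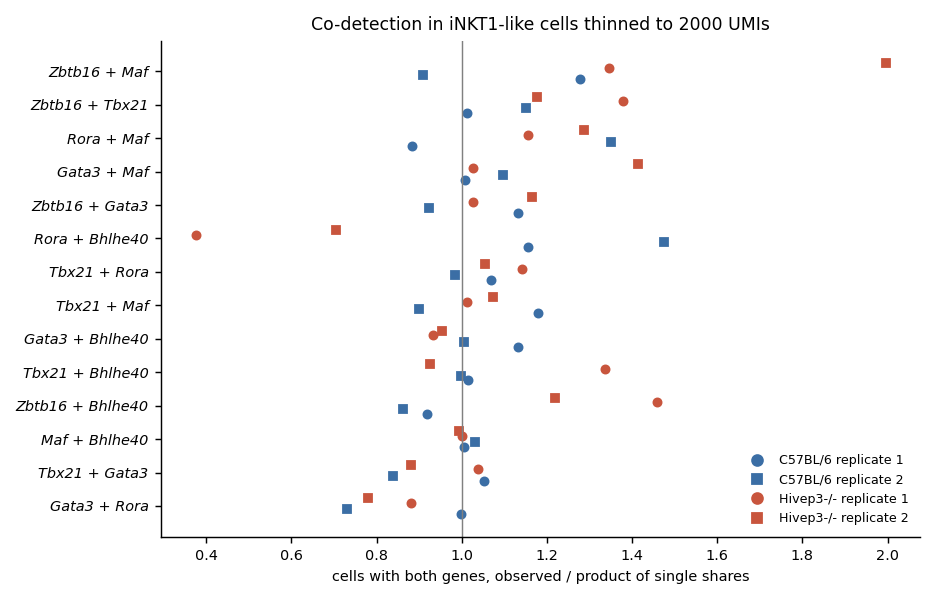
Cells with both genes divided by the number expected from the single shares (x axis) for 14 pairs of factors (y axis) in iNKT1-like cells thinned to 2000 UMIs, with 1 point per library and a line at 1. Points lay on both sides of the line for 11 pairs, all above it for Zbtb16 with Tbx21 and Gata3 with Maf, and all below it for Gata3 with Rora.

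In iNKT2-like cells Zbtb16 and Maf were together in 116 cells against 104 expected (1.09 to 1.25), and in iNKT17-like cells Gata3 and Maf in 34 against 43.9 (0.614 to 0.889). Tbx21 and Gata3, the factors of the iNKT1 and iNKT2 fates, met in 318 iNKT1-like cells against 323 expected (0.837 to 1.05). Rora and Maf, which share their peak in iNKT17-like cells, met there in 46 cells against 40.2 expected (0.932 to 1.45). With so few UMIs per cell a small departure from 1 is no finding.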

How the data were processed

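Thymic iNKT cells of 2 C57BL/6 and 2 Hivep3-/- mice were profiled by droplet 5' single-cell RNA sequencing, 1 library per mouse. The deposited values are raw UMI counts for each gene and barcode. Per the submitters' processing notes and the study's methods, they came from Cell Ranger 3.1.0 on mm10, and Seurat 3.1.4 was used after that. Of 31053 gene IDs, 30934 matched the annotation used for positions.

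Cells with at least 500 and under 4100 genes, at least 1000 UMIs and under 6% mitochondrial UMIs were kept. They were corrected between libraries by mutual nearest neighbours, on 30 components (irlba 2.3.5.1, RANN 2.6.2) of 2000 variable genes, and clustered with Seurat 5.3.0 at resolution 0.8. The 7 members, Hivep3, 26 genes the study singled out, 6 sex-linked genes and T cell receptor genes were left out of this step. Clusters were named from marker lists when at least 3 markers of a list stood among their 50 leading genes, at least 1 of them among the first 10, no other list had more among the first 10, at least 3 markers of the list were at 20 CPM or more, and the list's mean log2 ratio to the other cells was above 0. Clusters far shallower than their libraries also needed a marker among the first 10 genes. Scrublet in scanpy 1.11.5 called 0 to 5 doublets per library and so did not work, and an alternative removed the 5% of cells with the highest scores.

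UMI counts were summed per library and class and tested with edgeR 4.0.16 in R 4.3.3 (filterByExpr, TMM, quasi-likelihood test, two-sided, Benjamini-Hochberg adjustment over all genes tested), checked on simulated counts. DESeq2 1.42.0, other size factors, no low-count filter, other clusterings, a wider cell filter, each library left out and a replicate block were alternatives. The alternatives on doublets and on single clusters were added after seeing the data. Shares of cells carry 95% exact binomial intervals, and a count of 0 was bounded by 3 counts. Depth per library is given above, and a gene with few UMIs in a class was not tested there.

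The members, gene lists and markers were chosen with earlier results of these data known. Named were the 7 members, at most 5 called genes per list and class by smallest adjusted p, and the 3 genes most like each member, and genes outside this rule are marker genes used to describe a class or cell.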

Additional observations from a re-analysis of the deposited data

Results flagged for a closer look

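The genotype difference itself differed between the 5 classes for 4 of the 6 factors tested, against 11.0% of all genes, by the edgeR test of the interaction of genotype with class (adjusted p = 4.55e-06 for Zbtb16, 7.45e-05 for Maf, 0.000471 for Rora and 0.0100 for Tbx21). The Tbx21 call was lost without C57BL/6 replicate 2 (adjusted p = 0.147) and without correction between libraries (adjusted p = 0.116), with 1.06e-08 the lowest over its alternatives. Zbtb16 was at -1.58 in stage 0-like cells and -0.20 in iNKT2-like cells on the log2 scale. Maf and Rora were at -1.68 and -1.60 in cycling-like cells and at -0.06 and 0.04 in iNKT17-like cells. Tbx21 was at -1.64 in iNKT2-like cells and -0.10 in iNKT1-like cells.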

How the results depend on the processing

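The 2 libraries per genotype limit every test. Eomes, whose call is not used, is included in the counts of this part for iNKT1-like cells and for all kept cells. Over the counts of factors per comparison, 78 alternative values stayed within 1.5 times the reported count and 27 did not. For single factors, 357 alternative values kept their direction and side of the threshold, 15 lost the call, 25 gained one and 23 changed sign. In stage 0-like and iNKT17-like cells the number of factors called stayed at 1 and 0 under the alternatives run. In cycling-like cells Zbtb16 lost its call in 5 of 14 alternatives and Rora and Maf in 1 each, while Tbx21 gained one in 2. In iNKT2-like cells 1 factor in place of 0 was called with DESeq2, without the low-count filter, with the replicate block and without correction between libraries, and 0 to 1 with a library left out. In iNKT1-like cells 5 in place of 2 were called without the filter, 0 in cluster 0 alone and 0 to 1 with a library left out. Over all kept cells 3 in place of 0 were called with DESeq2 and without the filter, 2 with the replicate block and the wider cell filter, 1 with high doublet scores removed, and 0 to 2 with a library left out. The detected share did not overlap for 9 pairs in place of 14 at a minimum of 2 UMIs, and for 19 to 24 with a library left out. Pairs co-detected above expectation in every library numbered 1 in place of 3 when thinned to 1000 UMIs, 22 without thinning, 0 at a minimum of 2 UMIs and 3 to 7 with a library left out. Pairs below expectation in every library numbered 0 in place of 2 when thinned to 1000 UMIs, without thinning and at a minimum of 2 UMIs, and 2 to 4 with a library left out, with 4 without C57BL/6 replicate 1 and 3 without replicate 2. The causes were not tested.

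Sign changes occurred in differences that were not called. In cycling-like cells Bhlhe40 was at -0.18 at resolution 0.4, and Tbx21 at 0.23 at resolution 1.2 and 0.22 without correction, and in iNKT2-like cells Maf was at 0.21 without correction. With a library left out, the log2 difference ran in stage 0-like cells from -0.41 to 0.10 for Gata3, and in cycling-like cells from -1.20 to 0.175 for Tbx21. In iNKT2-like cells it ran from -0.40 to 0.0275 for Zbtb16, -0.51 to 0.29 for Rora and -0.46 to 0.15 for Maf. In iNKT17-like cells it ran from -0.59 to 0.0641 for Gata3, -0.14 to 0.19 for Rora, -0.28 to 0.20 for Maf and -1.52 to 0.32 for Bhlhe40. In iNKT1-like cells it ran from -0.46 to 0.0255 for Gata3 and -0.28 to 0.0703 for Tbx21, and over all kept cells from -0.28 to 0.49 for Tbx21 and -1.35 to 0.0595 for Bhlhe40.

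Among all genes, the calls of 28 in stage 0-like cells became 187 without the filter, 50 at resolution 1.2, 50 without correction and 72 to 305 with a library left out. The 460 of cycling-like cells became 1139 without the filter and 284 in cluster 6 alone. The 36 of iNKT2-like cells became 83 with DESeq2, 380 without the filter, 224 without correction and 51 to 177 with a library left out. The 5 of iNKT17-like cells became 93 without the filter, 8 with the members kept in the clustering, 2 with doublets removed and 8 to 71 with a library left out. The 75 of iNKT1-like cells became 157 with DESeq2, 465 without the filter, 40 in cluster 0 alone and 14 to 95 with a library left out, and the 94 over all kept cells became 413, 965, 222 with the wider filter and 14 to 112. The labels do not pair mice across genotypes, and deviations of same-numbered mice correlated at 0.05 to 0.25 across genes. With the replicate block the calls were 261, 668, 103, 39 and 188 in the 5 classes and 212 over all kept cells, as a hint only.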

Other observations

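The unnamed clusters 2 and 8 belonged to no class comparison. In cluster 2, with 2301 cells, Zbtb16 was at 164 and 125 CPM in C57BL/6 and 107 and 118 in Hivep3-/-, and Tbx21 at 92.2 and 96.6 against 92.0 and 67.5, so both factors were seen at middle levels in 1 cluster. In cluster 8, with 876 cells, Maf was at 33.7 and 44.6 CPM in C57BL/6 and at 7.17 and 8.48 in Hivep3-/-, without overlap, beside the Zbtb16 levels given above. Cluster 8 held only 37 cells of C57BL/6 replicate 2.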
